A study of Homo sapiens with 19 samples.

Results

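Mesenchymal cells were examined in human liver organoids that had been treated with transforming growth factor β1 (TGFB1) or left as the matching control. The cells were chosen by 2 collagen transcripts and the lack of an epithelial one. A cell was taken if it had at least 500 detected genes, at most 20% mitochondrial UMIs (unique molecular identifiers, each standing for 1 captured transcript), at least 2 UMIs of COL1A2 and COL3A1 together making up at least 0.1% of its UMIs, and 0 UMIs of EPCAM. Of 31026 cells that passed the first 2 limits, 1598 met the whole rule. In the whole series of 19 libraries, 21735 of 120240 cells met it.

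The organoids were grown from W01, an established wild-type human pluripotent stem cell line distributed by WiCell. All were kept on an orbital shaker for 20 days and were then cultured for 5 more days with TGFB1 at 10 ng/ml or as its control, and were dissociated with trypsin on day 25. There were 2 libraries per group, made with 10x Genomics 3′ version 3 chemistry. A second experiment of the same design, used here for 1 comparison, exposed organoids to PA at 500 µM (the labels do not spell the abbreviation out) and has its own 2 controls. The labels name replicates without saying whether they were separate differentiations, so p-values measure only the spread between these libraries, which may be technical.

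TGFB1 is a secreted cytokine that signals through a pair of receptor kinases and SMAD transcription factors. In the liver it is best known for driving fibroblasts and stellate cells towards contractile, matrix-producing myofibroblasts, and for arresting the growth of epithelial cells. Mesenchymal cells of liver organoids stand in for the stromal cells that lay down scar collagen in the diseased organ.

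The mesenchymal cells numbered 337 and 272 in control replicates 1 and 2 and 395 and 594 in TGFB1 replicates 1 and 2. Their summed depth was 594883, 1997479, 2955749 and 3830443 UMIs in the same order. Control replicate 1 stood apart. Its mesenchymal cells had a median of 1336 UMIs, against 6420.5, 6801 and 6169 in the other 3 libraries, and they carried more epithelial RNA. The summed level of 16 hepatocyte markers in them was 548 CPM (UMIs of a gene for every 1000000 UMIs summed over these cells in 1 library) against 103 to 142 CPM elsewhere. SPINK1, which encodes a secreted protease inhibitor of epithelial cells, stood at 2229 CPM in control replicate 1, 183 CPM in control replicate 2, and 23.7 and 57.2 CPM with TGFB1. Doublet scoring marked 17.2% of the mesenchymal cells of control replicate 1 and 1.27% to 2.94% of those of the other libraries. The part of depth, doublets and epithelial RNA in the results below was not tested, and values without this library are given for the shares and for most gene lists. No cell barcode of a mesenchymal cell was shared between libraries.

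The mesenchymal label was set beside marker lists that do not hold COL1A2, COL3A1 or EPCAM. The mesenchymal identity list includes COL1A1 and other collagens, which go with the pair used by the rule. Its level is thus partly set by the choice of cells and is no independent check. All 20 mesenchymal identity genes were detected. Their summed level was 13730, 14840, 15340 and 14680 CPM in the mesenchymal cells of control replicates 1 and 2 and TGFB1 replicates 1 and 2. In all other kept cells of the same libraries it was 794, 1479, 6563 and 5769 CPM. Epithelial RNA was low but not missing. Of 16 hepatocyte markers 13 were detected in the mesenchymal cells, and the 15 genes of the ductal and general epithelium list summed to 1891, 1219, 1678 and 1477 CPM in them against 6558 to 12940 CPM in other cells. Of 12 immune markers, 6 were at 0, among them PTPRC, the pan-leukocyte gene, and the macrophage genes CD14 and MARCO. SOX10 of neural crest and MYOD1 of skeletal muscle were also at 0, but their lists summed higher in mesenchymal than in other cells of every library. The 12 neural genes, 9 of them detected, summed to 150 to 256 CPM against 58.5 to 93.45 CPM. The 11 muscle and cartilage genes, 6 of them detected, summed to 272 to 311 CPM against 159 to 256 CPM. The hepatic stellate list did not stand out. Its 14 genes summed to 774 to 923 CPM in the mesenchymal cells and 866 to 1531 CPM in the other cells. Of these 14, 13 were detected in the mesenchymal cells, and LHX2, a defining stellate transcription factor, was at 0. RGS5, also on the list, had a UMI in 6.82% to 31.25% of mesenchymal cells by library, against 0.313% to 1.73% of other cells. More lists summed higher in mesenchymal than in other cells of every library. The 15 smooth muscle and myofibroblast contractile genes summed to 3149, 5744, 7373 and 5984 CPM against 660, 1026, 5150 and 4359 CPM. The 12 endothelial genes, all detected, summed to 121 to 168.5 CPM against 51.9 to 95.6 CPM. The cells are therefore called mesenchymal, with no finer type.

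**Figure D1:**
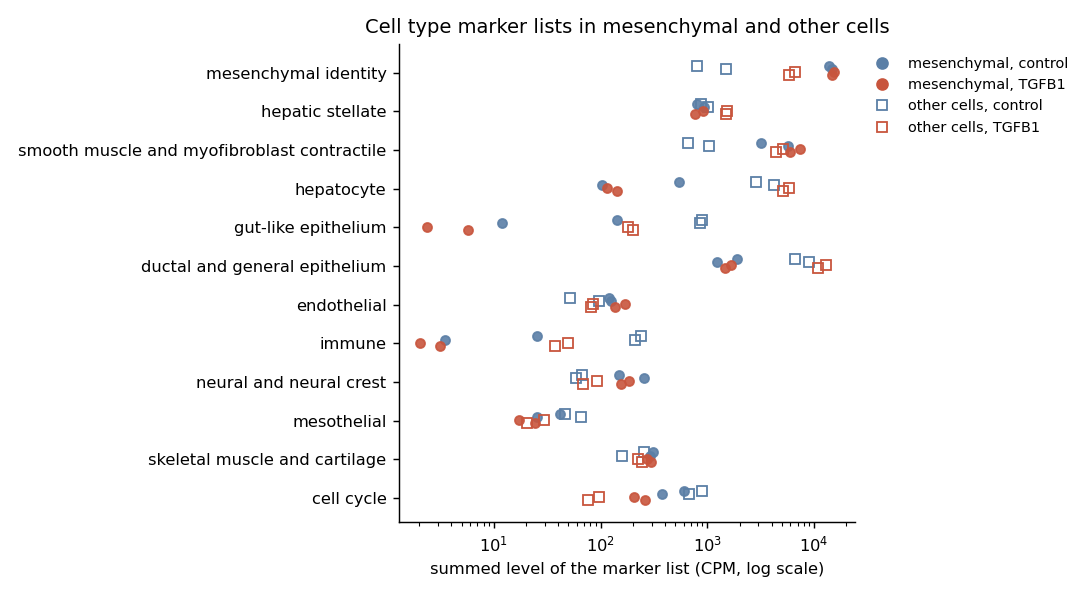
Summed level of each marker list (CPM, logarithmic axis) in the mesenchymal cells (filled circles) and in all other kept cells (open squares), 1 point per library, control in blue and TGFB1 in red. The mesenchymal identity list lies between 13730 and 15340 CPM in all 4 sets of mesenchymal cells, and the control library with 548 CPM of hepatocyte markers is replicate 1.

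Because the cells were chosen by their collagens, levels relative to other cells are a description with no test. FN1, which encodes the matrix glycoprotein fibronectin, was the most abundant transcript after the nuclear RNA MALAT1 when ribosomal protein and mitochondrial genes are left aside, at 9123, 10751, 12125 and 12847 CPM. COL1A1, the partner chain of COL1A2 in type I collagen, was also among the 15 most abundant, at 4534, 4117, 4218 and 4470 CPM, with the groups overlapping. TIMP1, an inhibitor of matrix metalloproteases, stood at 2207, 3749, 7631 and 6816 CPM.

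Genes with at least 50 CPM were also ranked by the smallest of their 4 ratios to other cells, so that a high rank needs a high ratio in every library. The first 15 include COL3A1 and COL1A2, which the rule used. COL6A3, a chain of type VI collagen, was at least 27.4 times higher in the mesenchymal cells of every library. POSTN, which encodes the matrix protein periostin, was at least 26.7 times higher, and PDGFRB, the platelet-derived growth factor receptor of stromal cells, at least 23.3 times. FAP, a surface protease of activated fibroblasts, was at least 23.1 times higher at a mean of 56.7 CPM. EMILIN1 of elastic fibres, the growth factor PTN, the mineralization inhibitor MGP and the sulfatase SULF1 were also among these 15 genes.

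Clustering the 1598 cells by themselves gave 8 subclusters that describe how they varied. Subcluster 1, of 417 cells, was led by TIMP1, SPON2 and AREG and also by FN1. Subcluster 4, of 360 cells, was led by PLAT, HOPX and LUM. Subcluster 3, of 179 cells, was led by IGF1 and PTN, and subcluster 0, of 54 cells, by the mural cell gene RGS5 with MGP and DPYSL3. Subcluster 6, of 111 cells, held 12 cell cycle markers among its leading genes. Subclusters 2, 5 and 7 were shallow, with medians of 1431, 1320.5 and 1702 UMIs. Subcluster 2 was led by the immediate early genes FOSB and FOS, subcluster 5 by epithelial genes, and subcluster 7 by TPM2 and FTL.

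The libraries filled these subclusters unequally. Subcluster 2 held 52.8% of the mesenchymal cells of control replicate 1 and 1.27% to 4.04% of those of the other 3 libraries. Subcluster 5, led by the epithelial genes SPINK1, ONECUT2 and SERPINA1, held 31.8% of control replicate 1 and 1.01% to 2.57% of the others. Subcluster 1 held 3.86% and 18% of the control cells in replicates 1 and 2 and 34.4% and 36.9% of the TGFB1 cells. Its leading genes were found from the same cells, and it was almost missing from the library that stood apart, so these shares were not tested.

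**Figure D2:**
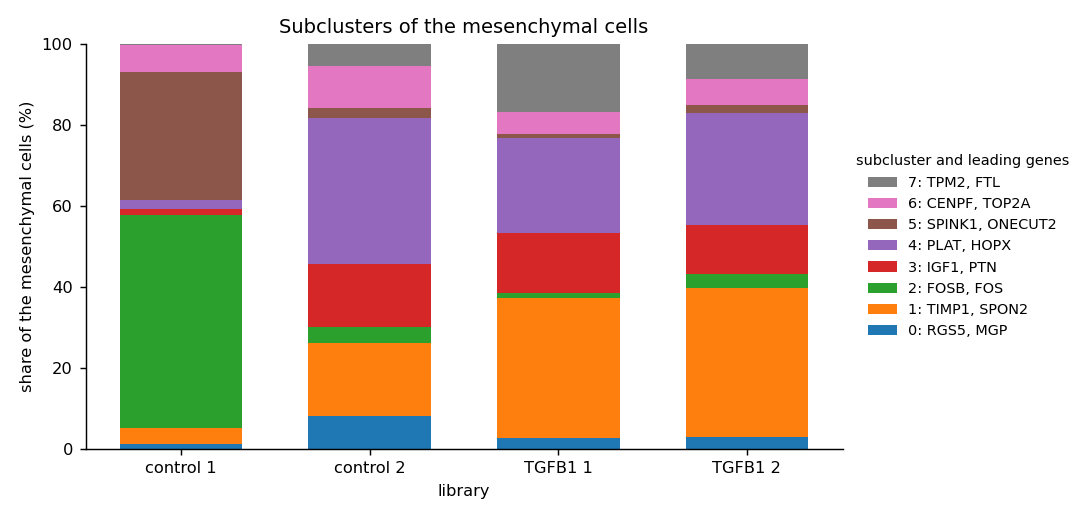
Share of the mesenchymal cells of each library (percent, stacked bars) in the 8 subclusters, named by their 2 leading genes. Control replicate 1 consists mostly of subclusters 2 (52.8%) and 5 (31.8%), while subcluster 1 holds 34.4% and 36.9% of the cells in the TGFB1 libraries.

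Mesenchymal cells made up a larger share of the TGFB1 libraries. They were 3.5% (95% exact Clopper-Pearson interval 3.15% to 3.89%) and 3.20% (2.83% to 3.59%) of kept cells in control replicates 1 and 2. In TGFB1 replicates 1 and 2 they were 6.58% (5.97% to 7.24%) and 8.6% (7.95% to 9.29%). The groups did not overlap, at 3.35% ± 0.217 (SD, n = 2) against 7.59% ± 1.43 (SD, n = 2). An exact two-sided permutation test over the 2 and 2 libraries gave p = 0.333, which is the smallest value this design allows. Without control replicate 1 the difference was 4.39 percentage points in place of 4.24. The intervals cover counting error only. The share is what the rule makes it, and the other cells also held more collagen RNA with TGFB1. Cells that passed the collagen limits but had EPCAM UMIs numbered 76 and 87 in the controls and 234 and 201 with TGFB1.

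A few cells lay near the limits of the rule. Between 1.01% and 9.2% of the mesenchymal cells of a library had exactly 2 collagen UMIs, while the median was 8 in control replicate 1 and 38, 36 and 33 in the others. Just outside, 101, 54, 101 and 54 cells without EPCAM had 1 collagen UMI in control replicates 1 and 2 and TGFB1 replicates 1 and 2.

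Cycling cells were counted after each cell had been thinned to 1000 UMIs, which left out 29.4% of the mesenchymal cells of control replicate 1 and at most 2.94% of those of another library. A cell counted as cycling with at least 2 UMIs over 18 cell cycle genes. The share among mesenchymal cells was 12.2% (95% exact interval 8.31% to 17%) and 7.58% (4.69% to 11.5%) in the controls. With TGFB1 it was 4.39% (2.58% to 6.94%) and 6.21% (4.38% to 8.49%). The means were 9.88% ± 3.26 (SD, n = 2) and 5.30% ± 1.28 (SD, n = 2), and the exact two-sided permutation test gave p = 0.333, the smallest possible. The difference of -4.58 percentage points was -2.28 without control replicate 1, where the exact permutation p was 0.667. Unthinned, the shares were 13.9% and 23.9% in the controls and 15.4% and 14.1% with TGFB1, and the groups overlapped. In the other kept cells the thinned share went from 15.9% and 10.9% to 1.15% and 0.578%.

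**Figure D3:**
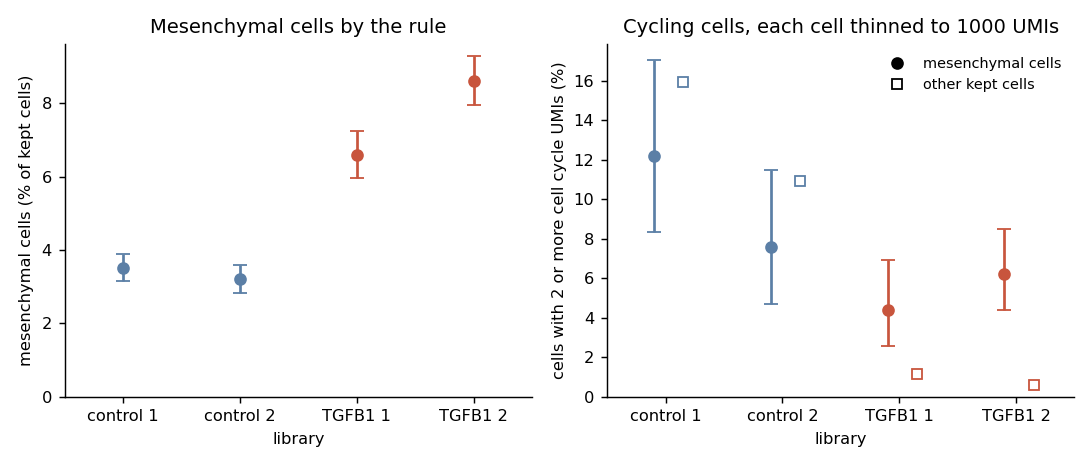
Left, mesenchymal cells as a percent of kept cells in each library. Right, percent of cells with at least 2 cell cycle UMIs after thinning to 1000 UMIs, for mesenchymal cells (filled circles) and all other kept cells (open squares). Bars are 95% exact binomial intervals for the mesenchymal cells. The other cells lie at 1.15% and 0.578% with TGFB1, below the mesenchymal cells of the same libraries at 4.39% and 6.21%.

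To ask which genes TGFB1 changed in the mesenchymal cells, their UMIs were summed per library and tested with edgeR, over the 11045 genes that passed its filter on low counts. Of these, 1 gene, GAL, had an adjusted p under 0.05, which is 0.00905% of the genes tested, and 1426 had an unadjusted p under 0.05. The count rested on the set of libraries and on the model, with 24 genes called by DESeq2 and 73 with a block for the replicate number. When control replicate 1 was left out, 134 genes passed, and 2084 did when control replicate 2 was. Leaving out TGFB1 replicate 1 gave 26 genes and leaving out TGFB1 replicate 2 gave 51. GAL was called each time. As a share of the genes tested, these calls were 1.13% without control replicate 1 and 17.6% without control replicate 2, which is the background for the list counts below that leave out those libraries. A group left with 1 library is assumed to vary like the other. Raw CPM and fitted fold changes differ, since the fit gave control replicate 1 a scaling factor of 1.15 against 0.927 to 0.984 for the others.

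GAL encodes galanin, a secreted neuropeptide (ENSG00000069482, GRCh38, chr11:68683779-68691175, positive strand). Its level in the mesenchymal cells was 16.8 and 16.0 CPM in control replicates 1 and 2 and 143 and 114 CPM in TGFB1 replicates 1 and 2. Those values rest on 10, 32, 422 and 436 UMIs. The groups lay far apart, and edgeR's quasi-likelihood test gave a log2 fold change of 3.11 ± 0.29 (SE) with a Benjamini-Hochberg adjusted p of 0.0022. After thinning, 1.68% and 1.52% of the control mesenchymal cells and 8.79% and 8.45% of the TGFB1 cells held a GAL UMI.

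Mesenchymal cells are set here and below against all other kept cells, which were not 1 class of cell. In a clustering of all kept cells, the cluster led by SPINK1 and CLU held 6946 cells of control replicate 1, and that led by AMBP and ANXA4 held 5557 of control replicate 2. The cluster led by KRT7 and FN1 held 4007 and 5576 cells of the TGFB1 libraries against 17 and 261 of the controls. A further cluster, with AC092069.1, FN1 and COL1A1 as its leading genes, held 816 and 183 TGFB1 cells and 2 and 4 control cells, of which 8 in all met the rule. This cluster held 7 mesenchymal markers among its 50 leading genes, counting COL1A2 and COL3A1. The cluster led by COL3A1 and COL1A2 held 1811 cells, of which 1426 met the rule. The other kept cells thus include cells of both of these mesenchymal-like clusters. An effect in other cells is therefore one over their whole mixture. How much of it is a change within a cell type was not tested.

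GAL also rose in the other kept cells of the same libraries, from 1.12 and 2.90 CPM to 298 and 237 CPM. The fold change there was 7.10 ± 0.53 (SE) on the log2 scale, at an adjusted p of 7.5e-04 by edgeR. The effect was therefore smaller in mesenchymal cells, with an interaction term of -3.77 on the log2 scale (edgeR, SE 0.36, adjusted p = 8.2e-08). Levels of some epithelial genes are printed beside it. In the TGFB1 libraries the GAL level of mesenchymal cells was 48% of that in other cells in both replicates. For KRT19, an epithelial keratin, it was 2.19% and 2.35%, for CDH1, the epithelial cadherin, 1.11% and 1.46%, and for SERPINA1, the hepatocyte gene of alpha-1 antitrypsin, 1.85% and 2.54%. The ductal and general epithelium list stood closer. It summed to 1678 and 1477 CPM in mesenchymal cells against 12940 and 10980 CPM in other cells of these libraries. The rule asks for 0 EPCAM UMIs, which by itself favours cells with little epithelial RNA, and the part of free RNA in the GAL level was not tested.

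The 4 genes next to GAL among those with higher levels did not pass the test, each with an edgeR adjusted p of 0.1125. OTULINL, a relative of the deubiquitinase OTULIN, stood at 20.2 and 15.5 CPM in the controls and 55.8 and 49.3 CPM with TGFB1, while other cells had 15.1 and 20.5 CPM and then 8.52 and 9.52 CPM. The effects in both kinds of cell differed by 2.76 on the log2 scale (edgeR interaction, adjusted p = 1.3e-07). NKAIN4, a membrane protein that interacts with the sodium pump, stood at 11.8 and 20.5 CPM and then 99.8 and 59.0 CPM. MTRNR2L12 and AC092069.1 were the other 2. Both were among the leading genes of the further cluster described above, found mostly in the TGFB1 libraries. The part of free RNA in the levels of these 4 genes was not tested. Whether each of the 4 passed depended on the setting. Over the alternatives the log2 fold change ran from 1.59 to 1.84 for OTULINL and from 1.93 to 3.08 for NKAIN4. It ran from 1.63 to 2.85 for MTRNR2L12 and from 1.80 to 2.86 for AC092069.1. MTRNR2L12 is a near copy of part of a mitochondrial ribosomal RNA, so its reads cannot be assigned with certainty.

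On the lower side, NPR3, PTCH1, SLIT2 and SYT4 were among the 5 genes of smallest p, and they also had an edgeR adjusted p of 0.1125. NPR3, the clearance receptor of natriuretic peptides, stood at 94.1 CPM in both controls and 30.8 CPM in both TGFB1 libraries, with a log2 fold change of -1.45 ± 0.24 (SE). SLIT2, a secreted guidance factor, stood at 48.8 and 32.0 CPM and then 10.8 and 9.40 CPM. SYT4 had 21 UMIs in the controls and 1 with TGFB1. For these 4 genes the TGFB1 libraries lay below the controls, and none passed in the main fit. Whether each of them passed depended on the setting. Over the alternatives the log2 fold change ran from -1.74 to -1.26 for NPR3 and from -2.32 to -1.56 for PTCH1. It ran from -1.92 to -1.43 for SLIT2 and from -7.18 to -4.11 for SYT4.

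**Figure D4:**
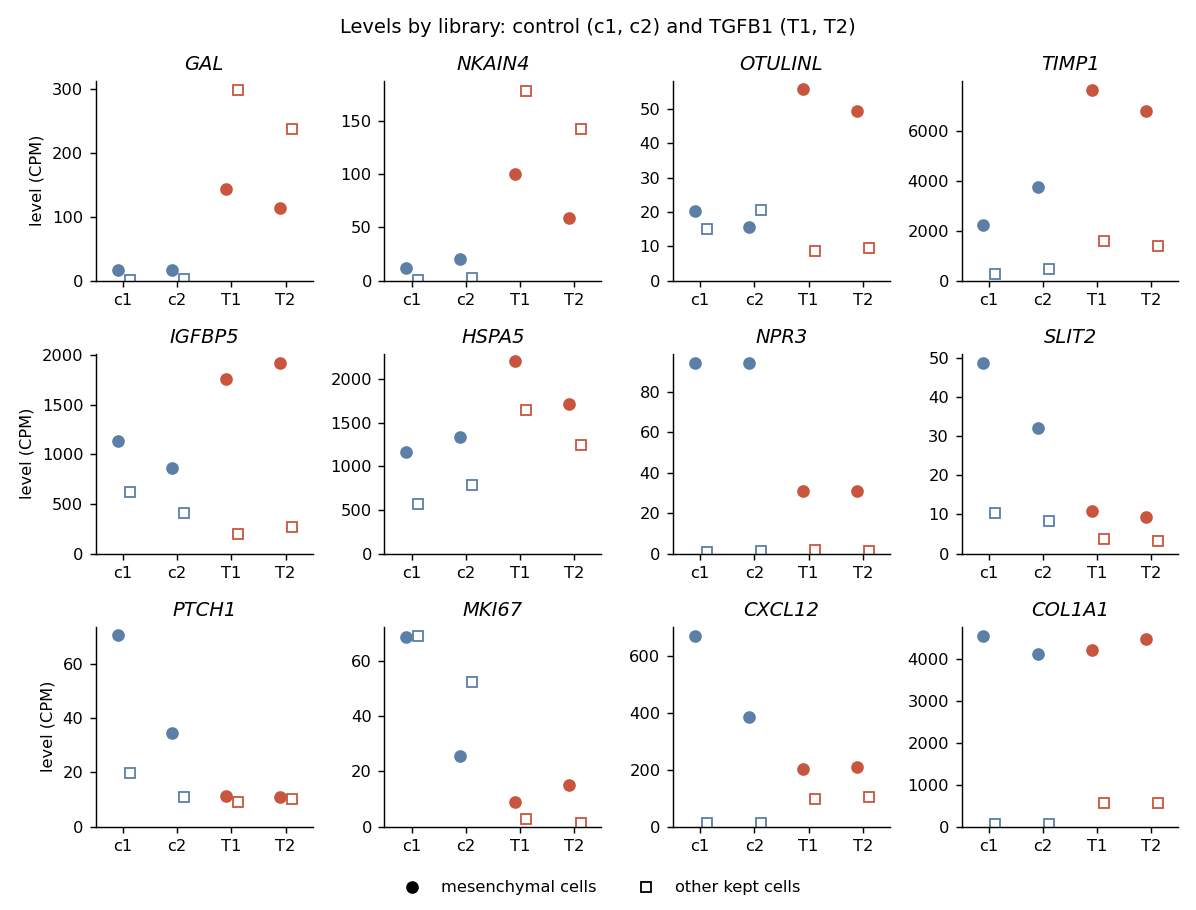
Levels (CPM, linear axes from 0) of 12 genes in control (blue, c1 and c2) and TGFB1 libraries (red, T1 and T2), for mesenchymal cells (filled circles) and other kept cells (open squares). GAL is at 143 and 114 CPM in the TGFB1 mesenchymal cells against 16.8 and 16.0 CPM in the controls, and COL1A1 stays between 4117 and 4534 CPM in mesenchymal cells.

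Gene lists are described by counts beside the same counts over all 11045 genes tested, where lying above or below is read from the raw CPM. Over all genes, the TGFB1 libraries lay wholly above the controls for 16% and wholly below for 35.4%, and the median log2 fold change was -0.02. Of these genes, 662 had higher and 764 had lower levels at an unadjusted p under 0.05 by edgeR. These values are the background for each list below. Control replicate 1 had the fewest UMIs and the largest scaling factor in the fit, which raw CPM does not use. The part of that library in these unequal shares was not tested.

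With all 4 libraries, no direct target or feedback gene of TGFB1 signalling was called in the mesenchymal cells. Of 23 tested, 0 passed the adjusted test, 5 had an unadjusted p under 0.05, all with higher levels, and the median log2 fold change was 0.36. The TGFB1 libraries lay above the controls for 9, against 16% of all genes, and below for 5, against 35.4%. PMEPA1, a feedback inhibitor of the pathway, stood at 101 and 97.1 CPM in the controls and 207 and 157 CPM with TGFB1 (log2 fold change 1.04 ± 0.26 SE, edgeR adjusted p = 0.219). CDKN2B, a cell cycle inhibitor induced by the pathway, stood at 63.9 and 105 CPM and then 184 and 124 CPM. TGFBI, a secreted matrix protein named after its induction by the pathway, overlapped between groups at 652 and 667 CPM against 706 and 666 CPM. SMAD7, the inhibitory SMAD, stood at 57.2 and 24.5 CPM in the controls and 21.3 and 21.2 CPM with TGFB1. Without control replicate 1 the median was 0.27 with 3 genes called, and without control replicate 2 it was 0.47 with 7 called.

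In other kept cells 15 of 24 targets rose and 0 fell, with a median log2 fold change of 1.80. Over all genes tested in those cells, 9.77% rose and 10.1% fell. By the edgeR interaction term the effect in mesenchymal cells was the lower one for 15 of 24 targets, against 6.88% of all genes, and the higher one for 1, against 3.56%. TGFBI went from 17.2 and 16.3 to 184 and 182 CPM in the other cells, which still left it below the mesenchymal level. Of 12 TGF-β ligands and receptors tested in mesenchymal cells, 0 passed, 2 lay above the controls and 3 below, and the median was 0.11, or 0.02 with 1 called without control replicate 1. It was 0.47 with 2 called without control replicate 2 and -0.17 with 0 called without TGFB1 replicate 1, so its sign rests on 1 library. The ligand gene TGFB1 itself stood at 136 and 179 CPM in the control mesenchymal cells and 209 and 187 CPM with treatment (log2 fold change 0.47 ± 0.28 SE, edgeR adjusted p = 0.476). Its receptor TGFBR1 stood at 37.0 and 34.5 CPM and then 42.3 and 42.0 CPM, and TGFBR2 at 33.6 and 33.5 CPM and then 22.3 and 19.1 CPM.

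No collagen was called either. Of 15 tested beyond the pair used by the rule, 0 passed, 0 had an unadjusted p under 0.05, and the median log2 fold change was 0.11. The rule asks for COL1A2 and COL3A1 in both groups, so collagens that go with that pair are held high by choice. Their small differences thus cannot show that TGFB1 left collagens unchanged. The TGFB1 libraries lay above the controls for 2 and below for 4. Without control replicate 1 the median was 0 with 0 called, and without control replicate 2 it was 0.36 with 2 called. COL1A1 had a log2 fold change of 0.19 ± 0.34 (SE), COL5A1 of type V collagen 0.26 ± 0.29, and POSTN, of the matricellular list, 0.23 ± 0.27. COL6A3 lay higher with TGFB1 in both libraries, at 1112 and 1107 CPM against 877 and 898 CPM, and did not pass (edgeR adjusted p = 0.485). COL6A2, another chain of type VI collagen, stood at 583 and 561 CPM and then 499 and 469 CPM, but its fitted log2 fold change was -0.07 ± 0.28 (SE). Of the contractile list, 14 genes were tested and 0 passed, with a median of 0.27. That median was 0.01 with 1 gene called without control replicate 1, and 0.97 with 8 called without control replicate 2. ACTA2, the smooth muscle actin that defines myofibroblasts, overlapped between groups at 109 and 210 CPM against 215 and 153 CPM. TAGLN, an actin-binding protein of the same cells, stood at 291 and 902 CPM against 1391 and 885 CPM.

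Taken as a whole, the other cells held more of the same matrix RNA with TGFB1, including the collagen-rich cluster of 816 and 183 TGFB1 cells described above, whose part was not tested. In them 10 of 14 collagens rose and 2 fell, against 9.77% and 10.1% of all genes. COL1A1 went from 65.9 and 61.9 to 552 and 564 CPM. The log2 fold change was 3.32 ± 0.26 (SE) at an edgeR adjusted p of 7.9e-04, against 0.19 in mesenchymal cells. Because the rule picks cells by their collagens in both groups, COL1A1 and genes that go with it are held high in the mesenchymal cells by choice, so the differences of effect for matrix lists are a description and support no smaller effect. MMP2, the protease that cleaves gelatin and basement membrane collagen, stood at 224 and 283 CPM in control and 235 and 232 CPM in TGFB1 mesenchymal cells, while its log2 fold change in other cells was 4.72 ± 0.28 (SE, edgeR adjusted p = 6.5e-04). Of the mesenchymal identity list, the interaction was called lower for 16 of 19 genes and higher for 0, against 6.88% and 3.56% of all genes. It was called lower for 18 of 23 matricellular genes and 14 of 20 proteases and inhibitors, and higher for 0 of either.

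The ratio of the mesenchymal level to that of other cells was lower with TGFB1, by unequal amounts. For COL1A1 it was 68.8 and 66.5 in the controls and 7.64 and 7.92 with TGFB1. For POSTN it was 84.5 and 75.5 and then 27.4 and 26.7. For FN1 it was 25.6 and 26.0 and then 2.80 and 3.01, and for VIM, the filament protein of mesenchymal cells, 4.20 and 3.24 and then 0.822 and 0.714. After thinning, 4.20% and 2.94% of the other cells in the controls and 30.4% and 30.3% of those with TGFB1 held a COL1A1 UMI. The TGFB1 libraries also held the larger share of mesenchymal cells, and the part of free RNA in the matrix RNA of other cells was not tested.

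**Figure D5:**
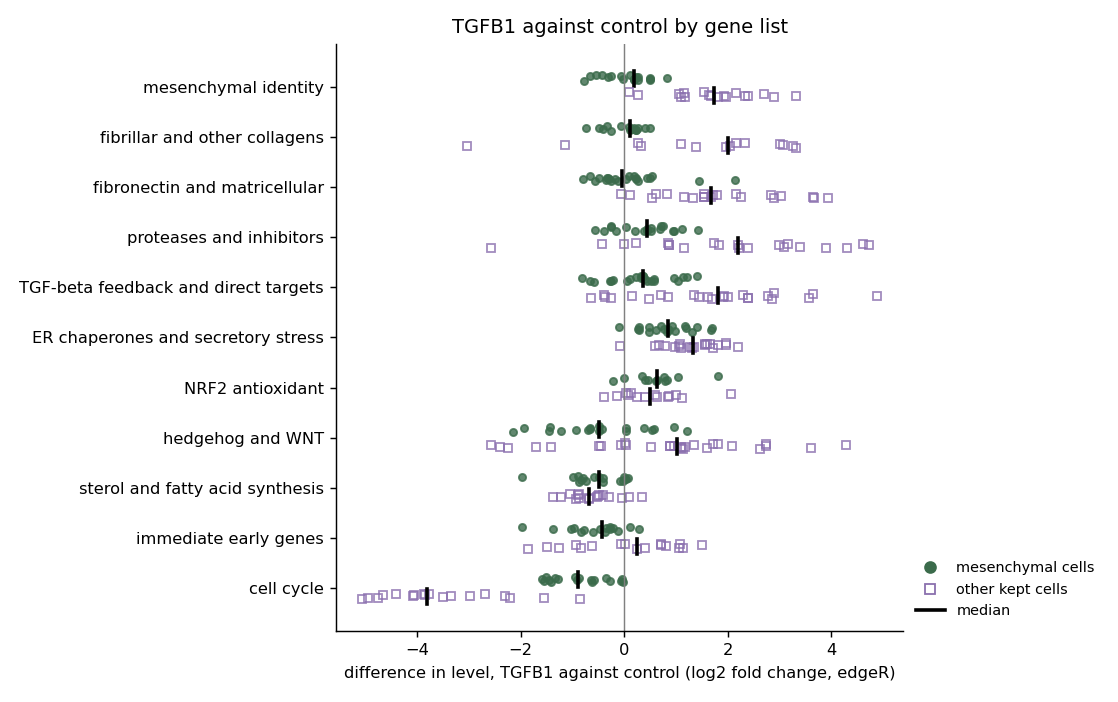
Log2 fold change between TGFB1 and control (edgeR) of each tested gene in 11 lists, for mesenchymal cells (green circles) and other kept cells (purple squares), with the median of each as a black bar. The median of the collagens is 0.11 in mesenchymal cells, which the rule picks by their collagens, and 2.01 in other cells. That of the endoplasmic reticulum list is 0.84 and 1.33.

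Genes of the endoplasmic reticulum (ER), the compartment where secreted and membrane proteins are folded, lay higher together in both kinds of cell. Of 20 chaperones and secretory stress genes tested in mesenchymal cells, 0 passed the adjusted test, but 13 had an unadjusted p under 0.05, all with higher levels. The TGFB1 libraries lay above the controls for 15, against 16% of all genes, and below for 1. The median log2 fold change was 0.84. HSPA5, the main Hsp70 chaperone of the ER, stood at 1162 and 1333 CPM in the controls and 2209 and 1720 CPM with TGFB1 (log2 fold change 0.82 ± 0.33 SE, edgeR adjusted p = 0.351). HSP90B1, the Hsp90 chaperone of the ER, stood at 1903 and 1743 CPM and then 3186 and 2627 CPM. Several less abundant members lay further apart. SDF2L1 stood at 124 and 224 CPM and then 601 and 425 CPM, CRELD2 at 140 and 138 CPM and then 385 and 273 CPM, and DNAJC3 at 126 and 140 CPM and then 340 and 251 CPM.

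The list kept its direction without control replicate 1, with a median of 0.69 and 8 genes called, and without control replicate 2, with 1.03 and 14 called. The calls rested on which library was left out, since 0 were made without TGFB1 replicate 1, at a median of 0.68, and 1 without TGFB1 replicate 2, at 0.98. In other cells 13 of 20 rose and 0 fell, against 9.77% and 10.1% of all genes. The interaction was called lower in mesenchymal cells for 7 of 20, against 6.88% of all genes, among them CALR, which encodes the lectin chaperone calreticulin, and higher for 1, against 3.56%, which was CREB3L1, a transcription factor of secretory cells. For HSPA5 the interaction was -0.37 ± 0.15 (SE, edgeR adjusted p = 0.136).

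Many ER chaperone genes share a promoter motif, the ER stress element, which is bound by NF-Y together with ATF6 or XBP1 when unfolded protein builds up. It is shown here because the genes of this list lay higher together. The motif searched was CCAAT, any 9 bases, then CCACG, on both strands, in the 250 bases before the start of each gene in RefSeq (GRCh38.p14). It was found for 6 of the 17 list members with a promoter entry, 35.3%, and for 25 of 27305 genes with an entry, 0.0916%. The list was made of such chaperone genes, so its larger share follows from that choice and is no result about TGFB1. The 6 were HSPA5, HSP90B1, CALR, PDIA6, XBP1 and CRELD2. For HSPA5, CALR and XBP1 the match ended before the gene as placed by GENCODE, and for HSP90B1, PDIA6 and CRELD2 it reached into it. A pair of examples follows, cut where the GENCODE gene begins, with the motif in capitals. In HSPA5 (chr9:125241383-125241593, negative strand) it reads on the strand of the gene, and in CALR (chr19:12938359-12938577, positive strand) on the opposite one.
HSPA5: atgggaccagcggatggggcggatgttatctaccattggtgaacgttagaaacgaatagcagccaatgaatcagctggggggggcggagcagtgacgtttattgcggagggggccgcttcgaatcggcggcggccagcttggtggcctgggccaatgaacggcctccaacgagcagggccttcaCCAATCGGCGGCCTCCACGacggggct
CALR: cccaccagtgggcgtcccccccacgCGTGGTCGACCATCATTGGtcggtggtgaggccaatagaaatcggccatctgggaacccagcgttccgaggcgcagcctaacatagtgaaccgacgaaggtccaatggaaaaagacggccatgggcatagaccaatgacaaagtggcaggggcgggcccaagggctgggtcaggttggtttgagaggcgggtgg

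Of the 6 genes with the motif, 5 had both TGFB1 libraries above the controls in mesenchymal cells. The exception was XBP1, a transcription factor of the unfolded protein response, at 148 and 138 CPM against 166 and 143 CPM. Of the 11 members with an entry and no match, 8 also lay above, SDF2L1 and DNAJC3 among them. A match describes letters in this window and no binding was measured.

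The ribosomal protein list, a housekeeping set that varies with the quality of a library, had a median of 0.52 over 18 genes, with 0 called, 7 above the controls and 5 below. It was 0.07 with 0 called without control replicate 1 and 1.09 with 12 called without control replicate 2, and its part in the other lists was not tested.

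Of 12 antioxidant genes under the factor NRF2 tested, 0 passed and 3 had an unadjusted p under 0.05. The TGFB1 libraries lay above the controls for 7, against 16% of all genes, and the median log2 fold change was 0.63. The ferritin genes FTH1 and FTL, which store iron, had log2 fold changes of 0.64 and 1.03. Both lead the shallow subcluster 7, which held 0.297% and 5.51% of the control and 16.7% and 8.59% of the TGFB1 mesenchymal cells, and its part in these values was not tested. On the same list, SQSTM1, an autophagy receptor, overlapped between groups. NQO1, a quinone reductase, stood at 8.41 and 7.51 CPM and then 21.3 and 27.9 CPM (log2 fold change 1.80, edgeR adjusted p = 0.135). Its effect was larger in mesenchymal than in other cells by 1.93 (edgeR interaction, adjusted p = 4.8e-04), and that of GCLM, a subunit of the enzyme that starts glutathione synthesis, by 1.23 (adjusted p = 0.0053). Of the 13 list members tested for this difference, 2 others were called in the opposite direction. They were the cystine transporter SLC7A11 at -1.21 and the malic enzyme ME1 at -1.45. Over all genes this difference was called higher for 3.56% and lower for 6.88%. Without control replicate 1 the list's median was 0.48 with 1 gene called, and without control replicate 2 it was 1.07 with 6 called.

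Of the growth factor list 23 genes were tested and 0 passed. The TGFB1 libraries lay above the controls for 5, against 16% of all genes, and below for 10, against 35.4%. The median was -0.08. Counted by gene entry in place of symbol, the median was -0.12 over 24 entries. By that count it was -0.07 without control replicate 1 and 0.05 without control replicate 2, so its sign rests on 1 library. The insulin-like growth factor binding proteins of the list carry these growth factors outside the cell. Their log2 fold changes ran from -0.43 for IGFBP3 to 1.28 for IGFBP2. IGFBP5 stood at 1136 and 860 CPM in the controls and 1757 and 1928 CPM with TGFB1 (log2 fold change 1.08 ± 0.31 SE, edgeR adjusted p = 0.275). In other cells it stood at 626 and 407 CPM and then 195 and 268 CPM, and the effects differed by 2.10 (edgeR interaction, SE 0.16, adjusted p = 3.3e-09). IGFBP2 stood at 694 and 1431 CPM and then 2614 and 2093 CPM. TIMP1, given above, differed by 1.42 ± 0.41 (SE) on the log2 scale, at an edgeR adjusted p of 0.274. Of 19 proteases and inhibitors tested, 0 passed, 8 lay above the controls, against 16% of all genes, and 4 below, against 35.4%. The median was 0.44. It was 0.30 without control replicate 1 and 0.57 without control replicate 2.

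The hedgehog members of the hedgehog and WNT list are described first, a split made after their values were seen, and none of them passed the test. Hedgehog ligands from epithelium act on stromal cells, where PTCH1, HHIP and GLI1 are both parts and targets of the pathway. PTCH1, the hedgehog receptor, stood at 70.6 and 34.5 CPM in control and 11.2 and 11 CPM in TGFB1 mesenchymal cells (log2 fold change -1.94 ± 0.32 SE, edgeR adjusted p = 0.1125). HHIP, a decoy receptor, stood at 75.6 and 68.1 CPM and then 19.6 and 26.6 CPM. GLI1, a transcription factor of the pathway, stood at 20.2 and 8.51 CPM and then 4.74 and 3.39 CPM, and GAS1, a co-receptor, at 40.3 and 23.5 CPM and then 12.5 and 10.2 CPM. The pathway's transcription factors GLI2 and GLI3, its co-receptors CDON and BOC and its transducer SMO lay below the controls as well, with log2 fold changes of -0.93, -0.67, -2.15, -0.49 and -0.49. The ligand SHH had at most 0.501 CPM in the 3 libraries other than control replicate 1, where it was at 10.1 CPM, and IHH was at 0 in all 4.

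Of the 19 hedgehog and WNT genes tested, 0 passed, 9 had an unadjusted p under 0.05 with lower levels and 2 with higher levels. The TGFB1 libraries lay below for 11 of 19, against 35.4% of all genes, and above for 4. The list's median log2 fold change was -0.49, and -0.27 with 2 genes called when control replicate 1 was left out. Without control replicate 2 it was -0.61 with 11 called. By the interaction term, the effect in mesenchymal cells was the lower one for 13 of 28 members tested, against 6.88% of all genes. It was the higher one for 3, against 3.56%, which were SMO at 1.31, FRZB at 2.27 and DKK1 at 2.39. Among the lower ones were PTCH1, with an edgeR interaction of -1.48 (adjusted p = 5.1e-04), and HHIP, with -2.45 (adjusted p = 5.1e-05). The WNT genes of the list did not follow one direction. SFRP1, a WNT inhibitor, stood at 639 and 588 CPM and then 314 and 372 CPM, while the ligand WNT5A stood at 58.8 and 47.6 CPM and then 58.9 and 62.1 CPM. WNT2, another ligand, stood at 6.72 and 8.51 CPM and then 18.6 and 15.7 CPM, and RSPO3, a WNT enhancer, overlapped between groups.

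Some sterol and fatty acid genes also had lower values. Of 17 tested, 0 passed and 7 had an unadjusted p under 0.05, all with lower levels. The TGFB1 libraries lay below the controls for 9, against 35.4% of all genes, and the median was -0.49. HMGCS1, an early enzyme of cholesterol synthesis, stood at 106 and 43.6 CPM and then 36.2 and 28.5 CPM, and FASN, the fatty acid synthase, at 103 and 63.6 CPM and then 30.1 and 39.9 CPM. SREBF1, a transcription factor of lipid synthesis, stood at 85.7 and 49.1 CPM and then 32.8 and 28.5 CPM. The 4 most abundant members were closer between groups. FADS2, a fatty acid desaturase, lay below the controls with a log2 fold change of -0.49, while SCD, FADS1 and SQLE overlapped, at -0.42, -0.07 and 0.03. Control replicate 1 held the highest value of HMGCS1, FASN and SREBF1. Without it the median was -0.28 with 1 gene called, and without control replicate 2 it was -0.74 with 9 called.

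Immediate early genes respond within minutes to stimuli that include tissue dissociation. Of 16 tested, 12 lay below the controls, against 35.4% of all genes, and 0 lay above, against 16%. The median was -0.42, and 0 passed. FOS stood at 1331 and 635 CPM and then 419 and 520 CPM. FOSB and FOS also lead the subcluster that held 52.8% of control replicate 1, and its part in the values of this list was not tested. Without that library the list's median was -0.36 with 2 genes called, and without control replicate 2 it was -0.34 with 7 called.

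Of the inflammation and chemokine list 18 genes were tested and 0 passed. Above the controls lay 3, against 16% of all genes, and below lay 7, against 35.4%. The median was 0.11. That median was -0.18 with 0 called without TGFB1 replicate 1 and -0.02 with 6 called without control replicate 2. CXCL12, a chemokine of stromal cells, stood at 671 and 385 CPM in the controls and 204 and 211 CPM with TGFB1 (log2 fold change -1.13 ± 0.29 SE, edgeR adjusted p = 0.223). In other cells it rose from 13.5 and 13.3 to 97.4 and 105 CPM, and the interaction was -4.09 (edgeR, SE 0.19, adjusted p = 5.7e-13). DCN, a small matrix proteoglycan, stood at 119 and 88.6 CPM and then 46 and 67.1 CPM. Of 21 transcription factors that mark organ position, 0 passed, 1 lay above the controls and 11 below, against the same 16% and 35.4%. The median was -0.35, or -0.15 without control replicate 2. HAND2, which marks gut and heart mesenchyme, stood at 65.6 and 57.6 CPM and then 25.7 and 33.2 CPM. PDGFRA, a receptor of platelet-derived growth factor on fibroblasts, overlapped between groups at 261 and 113 CPM against 72.7 and 140 CPM. Of 17 genes of bone morphogenetic protein (BMP) signalling, 0 passed, 4 lay above the controls and 9 below, against the same 16% and 35.4%. The median was -0.41, or -0.22 without control replicate 1 and -0.55 without control replicate 2. GREM1, a BMP antagonist and one of the 4 above, stood at 79.0 and 82.1 CPM and then 106 and 142 CPM.

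Cell cycle genes were lower in mesenchymal cells without passing the test. Of 18 tested, 0 passed and 8 had an unadjusted p under 0.05, all with lower levels. The TGFB1 libraries lay below the controls for 14, against 35.4% of all genes, and the median was -0.90. The median was -0.58 with 1 gene called without control replicate 1, -1.06 with 5 called without control replicate 2, and -0.50 with 0 called without TGFB1 replicate 1. MKI67, a marker of dividing cells, stood at 68.9 and 25.5 CPM and then 8.80 and 14.9 CPM (log2 fold change -1.59 ± 0.41 SE, edgeR adjusted p = 0.223). In other cells all 18 genes fell, against 10.1% of all genes, with a median of -3.82, and MKI67 fell by 4.76. The fall was smaller in mesenchymal cells for 15 of the 18, while 3.56% of all genes had the higher effect in mesenchymal cells. For MKI67 it was smaller by 3.34 (edgeR interaction, SE 0.42, adjusted p = 5.8e-06). With TGFB1 the summed level of the list was 203 and 263 CPM in mesenchymal cells against 97.1 and 76.8 CPM in other cells. Without TGFB1 it was 607 and 375 CPM against 894 and 671 CPM.

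Over all genes, the effect of TGFB1 differed between mesenchymal and other cells for 1581 of 15145 tested by the edgeR interaction term, 10.4%. The effect in mesenchymal cells was the lower of the pair for 1042 (6.88%) and the higher for 539 (3.56%). In other cells alone, 3322 of 16692 genes (19.9%) passed, 1631 with higher and 1691 with lower levels. Those cells were far more numerous, 29428 against 1598, so depth differs between the counts, and for genes that go with the collagens of the rule the term is bound by the choice of cells. Without TGFB1 replicate 1 or 2 the interaction was called for 938 or 985 genes. Among the most different genes, 2 were well covered in mesenchymal cells. CLSTN2, a synaptic cadherin, stood at 16.8 and 21.5 CPM and then 11.2 and 10.4 CPM in mesenchymal cells and rose from 1.97 and 1.35 to 22.6 and 25.6 CPM in other cells. LTBP2, a matrix protein of the latent TGF-β binding family, stood at 18.5 and 15 CPM and then 17.6 and 12.8 CPM, and rose from 0.526 and 0.577 to 14.2 and 15.7 CPM in other cells. The interaction was -4.86 ± 0.38 (SE) for CLSTN2 and -4.75 ± 0.44 for LTBP2, with edgeR adjusted p of 4.4e-09 and 5.0e-08.

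The TGFB1 effect was last set against the PA effect in cells chosen by the same rule. The PA experiment held 161 and 416 such cells in its controls and 255 and 377 with PA. Their summed depth was 310162 and 2746328 UMIs in the controls and 612169 and 2009254 UMIs with PA. Low CPM values in replicate 1 of either group thus rest on very few UMIs. With PA, 0 of 9519 genes passed against its control, and the TGFB1 effect differed from the PA effect for 0 of 11688 (edgeR, 615 with an unadjusted p under 0.05, and 0 with DESeq2). GAL stood at 16.1 and 21.1 CPM in the PA controls and 19.6 and 45.8 CPM with PA, and the effects differed by 2.30 ± 0.53 (SE, edgeR adjusted p = 0.43). OTULINL stood at 9.67 and 18.2 CPM in the PA controls and 1.63 and 8.96 CPM with PA, and the effects differed by 3.04 ± 0.59 (SE, edgeR adjusted p = 0.345). CAV1, a coat protein of membrane pits, stood at 18.5 and 21.0 CPM and then 48.7 and 52.7 CPM with TGFB1, and at 58.0 and 55.7 CPM and then 32.7 and 36.3 CPM with PA (difference 2.19 ± 0.42 SE, edgeR adjusted p = 0.345). CCL20, a chemokine, stood at 11.8 and 11 CPM and then 16.6 and 8.09 CPM with TGFB1. With PA it stood at 0 and 1.82 CPM in the controls and 14.7 and 35.8 CPM after treatment (difference -3.81 ± 0.85 SE, edgeR adjusted p = 0.43). The epithelial genes FABP1, AMBP and TM4SF4, which the same rule named, had their highest value of the TGFB1 experiment in control replicate 1.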

How the data were processed

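Droplet single-cell RNA-seq counts were used as deposited by the authors, as raw UMI counts per gene and barcode in matrix files. Cell Ranger 3.0.2, bcl2fastq, Scanpy and the GRCh38 genome are named in the submitters' processing notes, and the matrix headers of the libraries used give version 3.0.2. The 4 libraries of the TGFB1 experiment held 17137690 to 52928255 UMIs.

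Cells were chosen by the rule given in the report, and their counts were summed per library. Sums were tested with edgeR's quasi-likelihood test (edgeR 4.0.16, R 4.3.3, trimmed mean normalization, its filter on low counts, Benjamini-Hochberg adjustment, threshold 0.05). The contrast between mesenchymal and other cells was an interaction term over the summed counts of both. DESeq2 1.42.0 was an alternative. The procedure was tested on simulated data. Clustering and doublet scoring used scanpy 1.11.5 with Python 3.11.15. The automatic doublet threshold marked at most 0.0167% of cells and was not used. The highest scores were marked instead, at 0.8% per 1000 cells, and doublets were removed only in an alternative. Shares were compared by exact permutation over libraries. Positions came from GENCODE v44, matched for 628 of 630 genes.

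The members and gene lists were chosen with earlier results of these data known. Named genes were the calls of largest change with groups that do not overlap and at least 5 CPM, otherwise the 5 of smallest p per direction, with up to 4 genes per list, a set of genes always named, and the profile genes. Outside this rule, and chosen after their values were seen, are SPINK1, TGFBR1, TGFBR2, MMP2, SDF2L1, CRELD2, DNAJC3, CREB3L1, XBP1, NQO1, GCLM, HHIP, GLI1, GLI2, GLI3, CDON, BOC, SMO, GAS1, SHH, IHH, WNT2, HMGCS1, FASN, SREBF1, HAND2, SLC7A11, ME1, IGFBP3, FRZB and DKK1. A few named results are not reported here.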

Additional observations from a re-analysis of the deposited data

Results flagged for a closer look

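The effect of TGFB1 differed between mesenchymal and other kept cells for 1581 genes by the edgeR interaction term, and 16 of the most different genes are given here by that term on the log2 scale, in mesenchymal minus other cells. It was lower in mesenchymal cells for SYNE4 at -8.54, NEGR1 at -7.26, ADAMTS15 at -7.18, DHRS2 at -6.13, SLN at -5.67, GALNT18 at -5.30, CLSTN2 at -4.86 and LTBP2 at -4.75. It was higher for AGTR1 at 10.21, TROAP at 5.08, SPC25 at 4.85, EML1 at 4.61, RBP4 at 4.45, S100B at 4.34, TNNC1 at 4.33 and KIF18B at 4.28. Many of these rest on few mesenchymal UMIs. SYNE4 had 0 mesenchymal UMIs in both TGFB1 libraries and AGTR1 had 0 in both controls, so their fitted values depend on the prior count and give no bound. The call was lost in 8 of 14 alternatives for GALNT18 (-9.81 to -1.22) and S100B (2.76 to 10.36), in 6 for SYNE4 (-9.90 to -0.44) and in 4 for TNNC1 (1.75 to 11.65). It was lost in 2 for AGTR1, DHRS2 and KIF18B, where KIF18B also changed sign, and in 1 for RBP4. The part of free RNA in these differences was not tested.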

How the results depend on the processing

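The count of genes called in mesenchymal cells, 1 as reported, was 10 when 8 more epithelial genes had to be at 0 UMIs, 59 with the rule applied to cells thinned to 1000 UMIs, 266 with no filter on low counts and 24 with DESeq2. Leaving out 1 library gave 26 to 2084. Without the subcluster led by epithelial genes, an alternative chosen after seeing the data, it was 2. GAL was called in each of these. For the difference between mesenchymal and other cells, leaving out 1 library gave 938 to 1959 genes and DESeq2 gave 984. For the difference between the TGFB1 and PA effects, leaving out 1 library gave 0 to 75 genes and no filter on low counts gave 66. The causes were not tested.

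Same-numbered deviations from the group means correlated at -0.234 over 11060 genes, so the numbers were not used as pairs, and with 2 libraries per group the opposite sign holds for crossed numbers. With the replicate block, 73 genes were called in mesenchymal cells and 45 for the difference between the TGFB1 and PA effects. The crossed pairing, added after seeing the data, called 835, and whether the numbers are crossed was not tested.

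Leaving out 1 library gave STMN2 a log2 fold change of -0.49 to 0.73 in mesenchymal cells, the highest without control replicate 2, where edgeR gave an adjusted p of 0.0352, against -0.07 with all libraries. The difference for KIF18B ranged from -1.95, without TGFB1 replicate 2, to 5.77. The differences in the share of mesenchymal cells (3.23 to 5.25 percentage points without 1 library) and of cycling cells (-6.89 to -2.28) kept their direction. Control replicate 1 had the fewest UMIs in its mesenchymal cells, and the part of depth in these ranges was not tested.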

Other observations

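The same rule chose very different shares of cells across the rest of the series. It took 31.4% to 46.1% of kept cells in the 3 libraries of organoids labelled ULA at day 21, and 47% and 21.8% at day 34. On the orbital shaker it took 37.0% and 25.2% of untreated organoids, 5.02% and 7.24% of the PA controls, and 3.33% and 4.57% of organoids with PA. The libraries labelled OA held 1.33% and 0.993%, against 32.6% in both of their controls. These shares are given as values only, and no comparison was made between them.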
